A study of Mus musculus with 32 samples.

Results

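The kidneys of NZB/W mice in late remission after Ad-TACI-Ig and CTLA4Ig were set against those of NZB/W mice in early remission after the triple therapy of CTX, CTLA4Ig and anti-CD154. Membership followed the sample titles alone and gave 5 TACI-Ig late-remission kidneys (below, TACI-Ig kidneys) and 8 triple early-remission kidneys (below, early kidneys), 13 of the 32 kidneys in the series. Every kidney of both groups was a whole kidney from an NZB/W mouse that had received CTLA4Ig, and the groups differed in TACI-Ig against CTX with anti-CD154 and in late against early remission. Therapy and stage therefore cannot be told apart here. The sample names differed in the same way, since all 5 TACI-Ig kidneys carried a name beginning with E, while 4 early kidneys carried the letters BG, 3 the letters GG and 1 other letters. The labels give neither an age nor a dose nor a time since treatment for these 13 kidneys, and they do not say which mice were littermates or were treated together, so the p-values measure the spread between these samples. The study's methods state that kidneys were perfused with saline before harvest. The other kidneys of the series were 7 from untreated NZB/W mice without proteinuria at 30 weeks, 6 from the late-remission stage of the triple therapy in NZB/W mice and 6 from NZM2410 mice in remission after Ad-BAFF-R-Ig.

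NZB/W F1 mice develop a lupus-like glomerulonephritis in which immune complexes lodge in the glomeruli and leukocytes enter the interstitium. TACI-Ig, given here from an adenoviral vector (Ad), is a soluble decoy receptor that binds BAFF and APRIL, the survival factors of B cells and plasma cells. CTLA4Ig covers CD80 and CD86 and so keeps T cells from being costimulated through CD28, anti-CD154 blocks the CD40 ligand on T cells, and CTX is the usual abbreviation of cyclophosphamide, an alkylating drug. Most of the RNA of a whole kidney comes from tubules, and the proximal tubule, rich in mitochondria, reabsorbs filtered solutes and protein, breaks down amino acids and makes glucose. In whole-kidney RNA, fewer cells of a type and less RNA per cell cannot be told apart. Levels are given as log2 RMA values, and differences are TACI-Ig minus early on that scale.

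Both groups had the defining transcripts of the nephron at high levels, among them Umod (uromodulin, thick ascending limb) at 13.6 ± 0.14 in TACI-Ig kidneys and 13.6 ± 0.14 in early kidneys (SD, n = 5 and 8) and Slc34a1 (proximal phosphate transporter) at 12.8 ± 0.56 and 13.3 ± 0.30. A few kidneys stood apart. TACI-Ig replicate 2 lay as close to the early kidneys as these lay to each other: its root mean square distance to the early mean was 0.175, within the 0.145 to 0.283 of the early kidneys, whereas the other TACI-Ig kidneys had 0.328, 0.264, 0.237 and 0.327. Early replicates 2 and 8, with distances of 0.283 and 0.241, were the farthest from the rest of their group. The spread was larger among TACI-Ig kidneys than among early kidneys for 11338 of 15780 genes (71.9%), with median SDs of 0.166 and 0.128. Within an array, the SD of the log2 values was 1.914, 1.996, 1.973, 1.994 and 1.943 in TACI-Ig kidneys. It was 1.956 to 2.042 in early kidneys. Quantile normalization again, which gives all arrays 1 distribution, was run as an alternative. RNA quality also moved with the groups. The 3′ minus 5′ difference of the β-actin control probe sets, which grows as RNA is shortened, was 1.5, 0.66, 0.99, 0.86 and 1.29 in TACI-Ig kidneys and 0.674 to 1.01 in early kidneys. That of Gapdh was 0.42, -0.06, 0.18, 0.18 and 0.37, against -0.04 to 0.17. TACI-Ig replicate 2 had the smallest value of its group in both, and replicate 1 the highest. Of 27 Bacillus control probe sets, 26 had a higher mean in TACI-Ig kidneys, with differences between -0.0383 and 0.538, and the other 18 non-mouse controls all had a lower mean there (-0.238 to -0.0193). None of the 45 was without overlap, and their part in the results was not tested. A fit with the β-actin difference as a covariate lowered many values. Of 129 named genes, the difference became over 1.5 times smaller in 69 and over 1.5 times larger in 2, turned in 6 and stayed within 1.5 times in 52.

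With all 13 kidneys, no gene passed the test. Of 15780 genes, 0 were higher and 0 were lower in TACI-Ig kidneys at an adjusted p of 0.05 (limma, Benjamini-Hochberg over all genes), and the smallest adjusted p was 0.131. At an unadjusted p of 0.05, 992 genes (6.29%) had a higher and 1344 (8.52%) a lower level in TACI-Ig kidneys. The groups did not overlap for 24 genes that lay above all early kidneys (0.152%) and 37 that lay below them (0.234%). Over all genes, the mean was higher in TACI-Ig kidneys for 8556 (54.2%) and lower for 7224 (45.8%), with a median difference of 0.0117 and a median standard error of 0.083. The filter of the study asks for a q of 0.001 or less and a fold no smaller than 1.4 or no larger than 0.7. With limma's adjusted p in place of the q, it passed 0 genes.

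**Figure D1:**
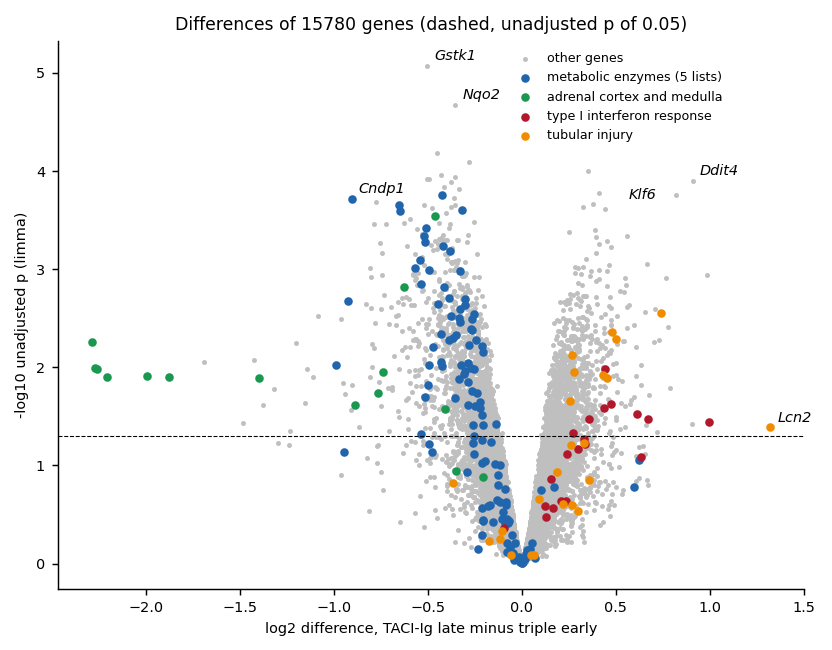
Log2 difference of each of the 15780 genes, TACI-Ig minus early kidneys (x axis), against minus log10 of its unadjusted limma p (y axis), with 6 genes named and the members of 4 groups of lists coloured. Gstk1 had the smallest p, and no gene reached an adjusted p of 0.05.

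The 10 genes with the smallest p among those lower in TACI-Ig kidneys included several mitochondrial and other metabolic enzymes. They differed by -0.281 to -0.507, and 7 of the 10 did not overlap between the groups, beside 0.234% of all genes, but none passed the test. Choosing genes by smallest p favours such separation. Gstk1, a glutathione S-transferase of mitochondria and peroxisomes, had 10.61, 10.50, 10.39, 10.50 and 10.21 in TACI-Ig kidneys, against 10.75 to 11.12 with a median of 10.93 in early kidneys. All 5 TACI-Ig kidneys thus lay below all 8 early kidneys. The difference was -0.50 ± 0.08 (SE; 95% interval -0.66 to -0.34), with an unadjusted p of 8.44e-06 and an adjusted p of 0.131, and it was -0.52 with the β-actin covariate. Nqo2, a quinone reductase, had 8.30, 8.36, 8.05, 8.13 and 8.22 in TACI-Ig kidneys, against 8.48 to 8.63 (median 8.57) in early kidneys, a difference of -0.35 ± 0.06 without overlap. Wfdc15b, a secreted protein with a WAP domain, had 12.59, 12.36, 12.36, 12.25 and 12.36 in TACI-Ig kidneys, against 12.59 to 12.91 (median 12.77), a difference of -0.38 ± 0.07. TACI-Ig replicate 1 lay next to the lowest early kidney, just below it.

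Hibadh, an enzyme of valine breakdown, had 12.03, 12.22, 12.00, 12.09 and 12.08 in TACI-Ig kidneys, against 12.31 to 12.45 (median 12.35) in early kidneys. Its difference was -0.28 ± 0.05, and -0.13 after quantile normalization. Iscu, the scaffold on which iron-sulfur clusters are built, had 10.09, 10.38, 10.26, 10.38 and 10.13, against 10.46 to 10.71 (median 10.64), a difference of -0.36 ± 0.07. For both genes, each TACI-Ig kidney lay below every early kidney. Gchfr, the feedback regulator of tetrahydrobiopterin synthesis, had 8.53, 8.64, 8.44, 8.51 and 8.16 in TACI-Ig kidneys, against 8.81 to 9.37 (median 8.92), again without overlap and with a difference of -0.51 ± 0.10. Cryzl2 also did not overlap, with -0.45 ± 0.08 (-0.29 with the covariate). Ndfip1, an adaptor of NEDD4-family ubiquitin ligases, had 10.66, 11.33, 10.75, 10.94 and 10.70, against 11.19 to 11.43 (median 11.42). Its groups overlapped because of TACI-Ig replicate 2, and the difference was -0.50 ± 0.10. Tmbim4, a membrane protein linked to protection from apoptosis, and Mettl26 had differences of -0.43 ± 0.08 and -0.42 ± 0.08.

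Among the 10 leading genes on the higher side, chosen in the same way, differences ran between 0.248 and 0.908. Of the 10, 4 did not overlap, beside 0.152% of all genes. Ddit4, an inhibitor of mTORC1 signalling that stress and glucocorticoids induce, had 9.06, 9.17, 9.85, 9.51 and 9.69 in TACI-Ig kidneys, against 7.73 to 8.80 (median 8.72) in early kidneys. Each TACI-Ig kidney lay above every early kidney, and the difference was 0.91 ± 0.18 (95% interval 0.53 to 1.29, adjusted p = 0.131). It was 0.94 with the β-actin covariate. Klf6, a zinc-finger transcription factor of the early injury response, had 8.49, 7.52, 8.07, 8.35 and 8.79 in TACI-Ig kidneys, against 7.17 to 7.74 (median 7.38), a difference of 0.82 ± 0.17. TACI-Ig replicate 2 lay within the early range and the other 4 above it, and the difference was 0.49 with the covariate. Zbtb16, a transcription factor induced by glucocorticoids, had 7.85, 7.15, 7.16, 7.06 and 7.67, against 6.65 to 7.04 (median 6.81), without overlap. Its difference was 0.56 ± 0.13, and 0.29 with the covariate. Raph1, which binds actin regulators at the leading edge of moving cells, had 8.27, 8.06, 8.15, 8.18 and 8.37, against 7.73 to 7.96 (median 7.87), and Slc12a2, the basolateral sodium-potassium-chloride cotransporter, had 8.14, 7.99, 8.01, 8.08 and 8.18, against 7.68 to 7.93 (median 7.84). Both lay above all early kidneys, by 0.35 ± 0.07 and 0.25 ± 0.06. Osmr, the oncostatin M receptor, had 7.23, 7.21, 7.61, 7.25 and 7.20 in TACI-Ig kidneys, against 6.72 to 7.24 (median 6.81). Early replicate 2 was alone among the early kidneys in reaching the TACI-Ig range. The remaining leading genes were Arid1b, a subunit of the BAF chromatin remodeller (0.41 ± 0.08), Camkk2, a kinase upstream of AMPK (0.38 ± 0.08), Tle1, a transcriptional corepressor (0.33 ± 0.07), and Elmod2 (0.39 ± 0.09). With the covariate Camkk2 and Elmod2 had 0.24 and 0.25.

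**Figure D2:**
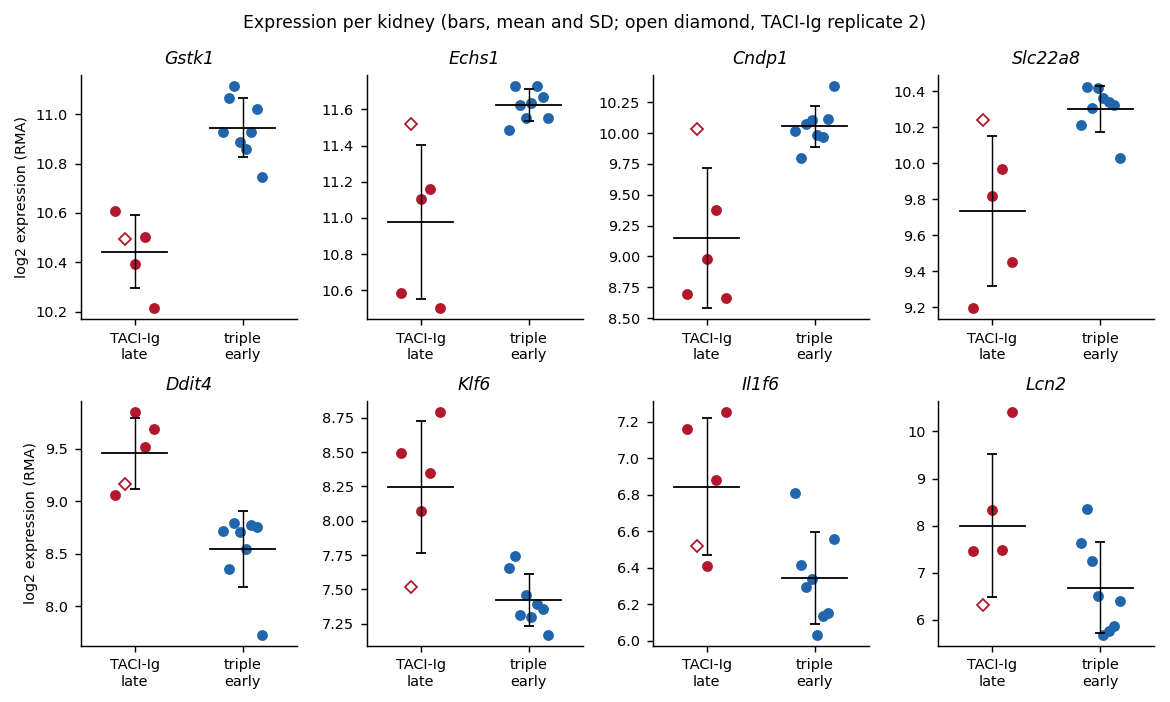
Log2 RMA value (y axis) of 8 genes in each kidney, TACI-Ig kidneys on the left and early kidneys on the right of each panel, 1 point per kidney with the group mean and SD. Gstk1 and Ddit4 did not overlap between the groups, whereas in Echs1, Cndp1, Slc22a8 and Klf6 TACI-Ig replicate 2 lay among the early kidneys.

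The 30-week untreated kidneys, fitted separately against each group, gave 0 called genes in either comparison, with smallest adjusted p-values of 0.203 for TACI-Ig and 0.127 for early kidneys. For all 10 leading genes on the higher side, the early mean lay within 1 SD of the 30-week mean, and for 0 of the 10 did the TACI-Ig mean. Ddit4, for example, averaged 9.46 ± 0.34 in TACI-Ig kidneys, 8.55 ± 0.36 in early kidneys and 8.78 ± 0.36 in 30-week kidneys. For the 10 leading genes on the lower side, the TACI-Ig mean was within 1 SD of the 30-week mean for 4 and the early mean for 3. Wfdc15b averaged 12.38 ± 0.12 in TACI-Ig kidneys, 12.76 ± 0.13 in early kidneys and 12.32 ± 0.18 at 30 weeks, so that its early kidneys were the ones apart, while Tmbim4 averaged 11.47 ± 0.19, 11.90 ± 0.12 and 11.86 ± 0.15, where the TACI-Ig kidneys were apart. These are descriptions, since both comparisons share the 30-week kidneys. The genes were also chosen by their p for TACI-Ig against early kidneys, which favours a distance of either mean from the 30-week mean. The same share over all genes is not given, so these counts cannot decide which group departed from the untreated kidneys.

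The count of called genes depended on TACI-Ig replicate 2. Without it, 383 genes (2.43%) rose and 693 (4.39%) fell in TACI-Ig kidneys at an adjusted p of 0.05, with a smallest adjusted p of 0.000101, and 12 passed the study's filter. Leaving out any other kidney in turn gave 0 called genes, with smallest adjusted p-values between 0.0612 and 0.375. Replicate 2 was the TACI-Ig kidney nearest the early mean, so leaving it out moved the groups apart. A fit over all 5 groups, which shares 1 estimate of the spread and keeps all 13 kidneys, called 46 higher (0.292%) and 268 lower (1.7%). Of these 314, 291 were also called without replicate 2. The 2 fits share the remaining TACI-Ig and early kidneys, so this overlap is not an independent result. A shared spread can be too small for TACI-Ig kidneys, whose SD exceeded that of early kidneys for 71.9% of genes. Variance weights per group, chosen after seeing the data, called 0 genes (smallest limma adjusted p 0.173). Array weights called 19 and 107 (0.12% and 0.678%), and replicate 2 had a weight of 0.503, beside 0.491 to 1.09 in the other TACI-Ig kidneys. A fit over the 4 NZB/W groups called 13 higher (0.0824%) and 105 lower (0.665%), and a SAM-type test 79 (0.501%) and 206 (1.31%) at a q of 0.05. None of these fits passed a gene through the study's filter. In the SAM-type test 10 genes had a q of 0.001 or less, but none of them had a fold past the filter.

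The 12 genes that passed the filter without replicate 2 all fell. They were Gstz1 and Gcdh, of tyrosine and of lysine and tryptophan breakdown, Prodh2, of hydroxyproline breakdown, Pccb, of propionyl-CoA metabolism, Nadk2, the mitochondrial NAD kinase, Ak3, a mitochondrial adenylate kinase, Bdh2, a short-chain dehydrogenase, Cndp1 (carnosinase) and Ndfip1, with Mia2, Hipk3 and Nap1l5. With replicate 2 left out, Bdh2 differed by -0.77, Gstz1 by -0.67 and Cndp1 by -1.13. With all 13 kidneys these differences were -0.60, -0.51 and -0.91, and TACI-Ig replicate 2 was within the early range for Cndp1. With the covariate they were -0.35, -0.34 and -0.51, and Hipk3, Mia2, Ak3 and Pccb had -0.37, -0.45, -0.28 and -0.30. Beyond them, Ifit1 (1.52), Iigp1 (1.34) and Ccl5 (1.13) had differences above 1 without that kidney. They are an interferon-induced RNA-binding protein, an interferon-induced GTPase and a chemokine for T cells, and these genes were chosen after their values were seen. With the covariate and all kidneys they had 0.22, 0.39 and 0.03.

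**Figure D3:**
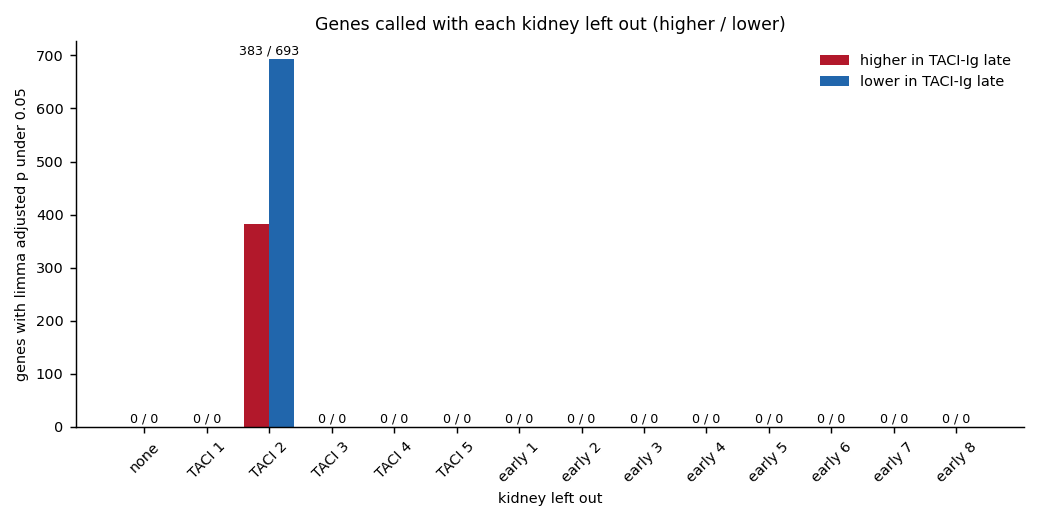
Number of genes called higher and lower in TACI-Ig kidneys (y axis, limma adjusted p under 0.05) with all 13 kidneys and with each left out in turn (x axis). Leaving out TACI-Ig replicate 2 gave 383 higher and 693 lower, and leaving out any other kidney gave 0.

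Long runs of lower means were found in the proximal tubule's intermediary metabolism. The lists were chosen with earlier results of these data known. Over all genes, 45.8% had a lower mean, and 8.52% were lower and 6.29% higher at an unadjusted p under 0.05. These shares apply beside every list below. Of 33 measured genes of amino acid catabolism, 31 had a lower and 2 a higher mean in TACI-Ig kidneys, and 24 had an unadjusted p under 0.05, all lower, beside 8.52% of all genes. Their median difference was -0.385, against 0.0117 over all genes tested, and it was -0.2565 after quantile normalization. No member was called with all kidneys. Without TACI-Ig replicate 2, 16 fell, beside 4.39% of all genes, and in the fit over 5 groups 15 fell, beside 1.7%. The mean score of the list, centred per gene, was -0.396, 0.0967, -0.298, -0.163 and -0.413 in TACI-Ig kidneys and -0.0153 to 0.236 in early kidneys. Replicate 2 lay within the early range and the other 4 below it. With the β-actin covariate the median was -0.267, and 18 of the 24 had an unadjusted p under 0.05 on the lower side in that fit too, where 3.59% of all genes did.

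Cndp1, which splits carnosine, had 8.69, 10.03, 8.98, 9.38 and 8.67 in TACI-Ig kidneys, against 9.80 to 10.38 (median 10.04) in early kidneys. All TACI-Ig kidneys but replicate 2 were below all early kidneys, and the difference was -0.91 ± 0.18 (adjusted p = 0.131), or -0.51 with the covariate. Prodh2 had 8.33, 9.34, 8.72, 8.59 and 8.45, against 9.11 to 9.56 (median 9.35), a difference of -0.65 ± 0.14. Pcca, the partner subunit of Pccb in propionyl-CoA carboxylase, had 10.25, 10.78, 10.25, 10.51 and 10.27, against 10.70 to 10.95 (median 10.85), a difference of -0.43 ± 0.09 (-0.27 with the covariate). In both, replicate 2 was the single TACI-Ig kidney inside the early range. Fah, the last enzyme of tyrosine breakdown, had 11.53, 11.63, 11.71, 11.80 and 11.39, against 11.83 to 12.02 (median 11.93), a difference of -0.32 ± 0.07. Here all 5 TACI-Ig kidneys lay below the early kidneys, replicate 2 included.

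All 10 measured genes of gluconeogenesis and fructose metabolism had a lower mean in TACI-Ig kidneys, beside 45.8% of all genes. Of the 10, 9 had an unadjusted p under 0.05, beside 8.52% of all genes. The list's median difference was -0.482 (-0.17 with the covariate). Dcxr, an enzyme of xylulose reduction, had 10.65, 11.47, 10.92, 11.38 and 10.60 in TACI-Ig kidneys, against 11.41 to 11.65 (median 11.56), a difference of -0.54 ± 0.13. Fbp1, a committed enzyme of gluconeogenesis, had 13.23, 13.69, 13.35, 13.70 and 13.30, against 13.66 to 13.92 (median 13.77), a difference of -0.33 ± 0.09. Replicates 2 and 4 of the TACI-Ig group lay within the early range for Fbp1 and the other 3 below it. Pcx, which feeds pyruvate into this pathway, differed by -0.47 ± 0.15 and Cryl1, of the uronate cycle, by -0.43 ± 0.13. With the covariate Dcxr, Fbp1 and Cryl1 had -0.28, -0.17 and -0.17.

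In mitochondria, all 16 genes of the tricarboxylic acid cycle had a lower mean in TACI-Ig kidneys. Of the 16, 11 had an unadjusted p under 0.05, beside 8.52% of all genes. The list's median was -0.261, -0.116 after quantile normalization and -0.146 with the covariate. Pdha1, the catalytic subunit of pyruvate dehydrogenase, had 10.79, 11.72, 11.09, 11.23 and 10.85, against 11.43 to 11.71 (median 11.62), a difference of -0.45 ± 0.12. Replicate 2 lay just above every early kidney and the other TACI-Ig kidneys below. Suclg2 and Suclg1, subunits of succinate-CoA ligase, differed by -0.30 ± 0.08 and -0.27 ± 0.08, and Idh3b, of isocitrate dehydrogenase, by -0.33 ± 0.09. With the covariate Pdha1 had -0.21, Suclg2 -0.17 and Idh3b -0.16. Of 34 genes of oxidative phosphorylation, 27 had a lower mean. On that side 14 had an unadjusted p under 0.05, beside 8.52% of all genes. The list's median was -0.135, which became -0.003 when the arrays were quantile normalized again, so its difference was not kept under that scaling. Cox8a, a subunit of cytochrome c oxidase, had 12.09, 12.29, 12.27, 12.27 and 11.93, against 12.31 to 12.59 (median 12.45), without overlap and with a difference of -0.25 ± 0.07. Cox5b, another subunit, differed by -0.38 ± 0.09, Uqcrc1, of complex III, by -0.41 ± 0.11 and Sdhb, of complex II, by -0.27 ± 0.08. With the covariate Cox8a, Uqcrc1 and Sdhb had -0.16, -0.20 and -0.15.

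Of 30 genes of fatty acid oxidation, 26 had a lower mean in TACI-Ig kidneys, 7 of them with an unadjusted p under 0.05 (median -0.173, but -0.0607 without early replicate 2). Echs1, a hydratase of the mitochondrial β-oxidation spiral, had 10.59, 11.52, 11.11, 11.16 and 10.50, against 11.49 to 11.73 (median 11.64) in early kidneys. The difference was -0.65 ± 0.14, or -0.37 with the covariate, and replicate 2 again lay at the edge of the early range. Etfa and Etfdh, which pass electrons from β-oxidation to ubiquinone, differed by -0.30 ± 0.08 and -0.35 ± 0.11, and Hadh, the next enzyme of the spiral, by -0.27 ± 0.08. Sterol synthesis and uptake had 13 of 14 members with a lower mean, 5 with an unadjusted p under 0.05, and a median of -0.238. Insig1, which holds back the sterol sensor SCAP, had 6.43, 7.46, 6.70, 7.64 and 6.67, against 6.99 to 8.14 (median 7.80), a difference of -0.78 ± 0.23, and Fads2, a fatty acid desaturase, had 9.01, 10.26, 9.67, 9.98 and 8.86, against 9.75 to 10.50 (median 10.39), a difference of -0.75 ± 0.21. In both genes early replicate 2 was the lowest early kidney, and with the covariate Insig1 had -0.34, Fads2 -0.26 and the list a median of -0.0492. The sterol regulatory element, searched as TCACNCCAC on both strands in the 250 bases before each start, was present in 0 of the 10 list genes that had a RefSeq promoter and in 1.05% of all promoters.

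Conjugation enzymes and cytochromes P450 ran the same way. Among 24 glutathione and conjugation genes, 19 had a lower mean in TACI-Ig kidneys and 6 an unadjusted p under 0.05 on that side, with a median of -0.204 (-0.058 after quantile normalization and -0.126 without early replicate 2). Ugt3a2, a glucosyltransferase, had 12.36, 13.08, 12.52, 12.59 and 12.42, against 12.85 to 13.17 (median 13.08), a difference of -0.46 ± 0.10, or -0.27 with the covariate. Gstt1, a theta-class glutathione transferase, had 10.81, 11.02, 10.74, 10.78 and 10.85, against 10.82 to 11.31 (median 11.25), and differed by -0.33 ± 0.08. TACI-Ig replicates 1, 3 and 4 lay below the lowest early kidney, replicate 8, for Gstt1. At an unadjusted p under 0.05, 8 of 24 P450 genes were lower and 1 higher, beside 8.52% and 6.29% of all genes. Of the 24, 17 had a lower mean, with a median of -0.214 (-0.14 with the covariate). The median was -0.0891 without early replicate 2, -0.136 without early replicate 8 and -0.133 without TACI-Ig replicate 4. Cyp2d12 had 6.61, 7.62, 7.47, 7.60 and 7.23, against 7.78 to 8.64 (median 8.03), a difference of -0.79 ± 0.17 without overlap. Cyp2e1, which oxidises ethanol and other small molecules and is androgen-dependent in mouse kidney, had 10.34, 11.59, 10.44, 10.74 and 10.30, against 11.19 to 12.62 (median 11.38), with early replicates 2 and 8 far above the rest. Its difference was -0.96 ± 0.28. Cyp2j11 and Cyp2d26 differed by -0.40 ± 0.09 and -0.73 ± 0.19, and Cyp2d26 had -0.30 with the covariate.

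**Figure D4:**
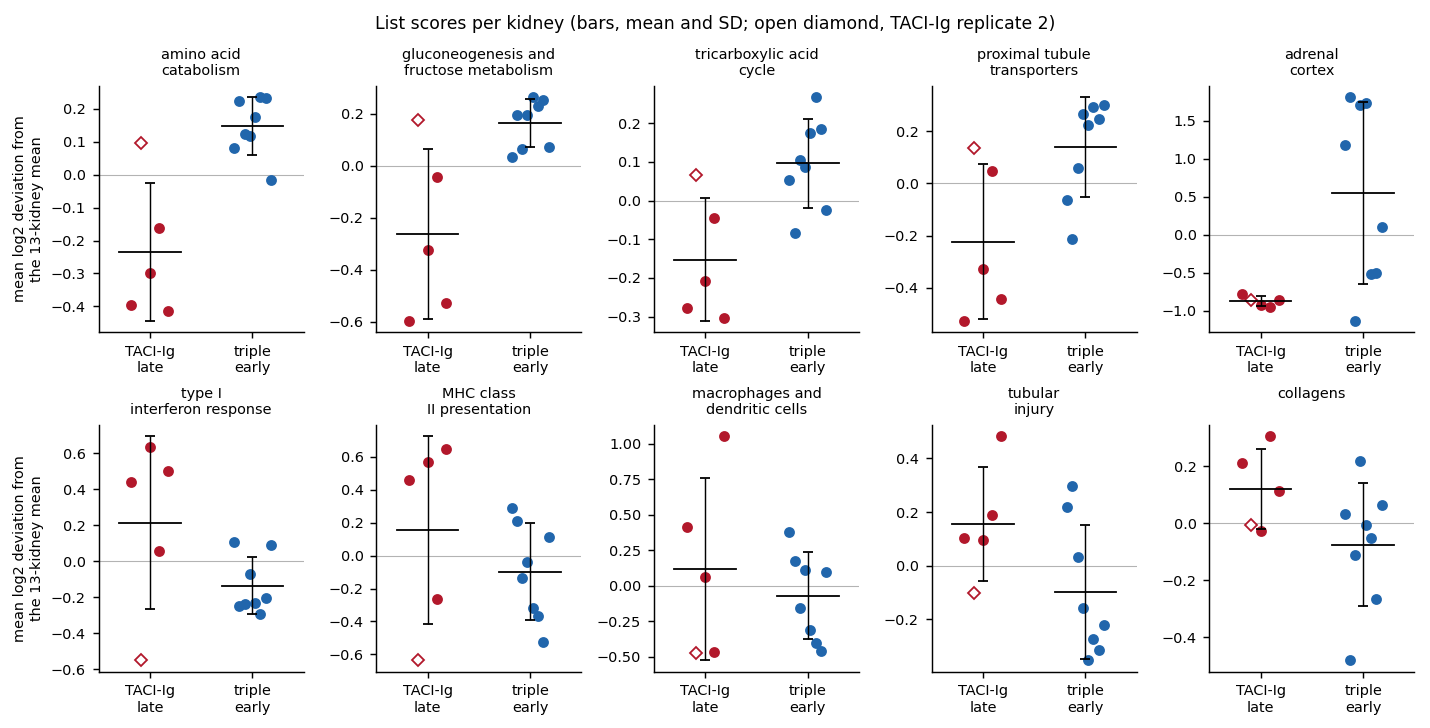
Mean score of 10 gene lists (y axis, mean log2 deviation from the 13-kidney mean of each gene) in each kidney, TACI-Ig kidneys left of early kidneys, 1 point per kidney, bars giving mean and SD. In the metabolic lists TACI-Ig replicate 2 lay among the early kidneys, and in the interferon list it lay below them all while replicates 1, 3 and 5 lay above.

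Transporters of the proximal tubule also had lower means. Of 21 measured, 20 had a lower mean in TACI-Ig kidneys, 9 with an unadjusted p under 0.05, beside 8.52% of all genes. The list's median difference was -0.411. With the covariate the median was -0.108. Slc22a8, an organic anion transporter of the basolateral membrane, had 9.19, 10.24, 9.82, 9.97 and 9.45, against 10.03 to 10.42 (median 10.33), a difference of -0.57 ± 0.14. Slc2a2 (GLUT2), through which reabsorbed glucose leaves the cell, had 10.51, 11.60, 10.63, 11.24 and 10.90, against 11.23 to 11.64 (median 11.40), a difference of -0.44 ± 0.15. TACI-Ig replicates 1, 3 and 5 were below the early kidneys in both genes and replicate 2 was inside their range. Slc13a3, a dicarboxylate transporter, had 11.86, 11.92, 11.84, 11.84 and 11.51, against 11.73 to 12.49 (median 12.16), and its difference of -0.37 ± 0.10 was also -0.37 with the covariate. Slc7a9, a cystine transporter subunit, differed by -0.41 ± 0.13. With the covariate Slc22a8, Slc2a2 and Slc7a9 had -0.30, -0.18 and -0.25.

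All 7 endocytic receptor genes, through which the proximal tubule takes up filtered protein, had a lower mean (4 with an unadjusted p under 0.05, median -0.333, and -0.0964 with the covariate). Cubn (cubilin) had 11.32, 12.38, 11.78, 12.31 and 11.30, against 12.03 to 12.51 (median 12.35), a difference of -0.49 ± 0.17. Replicates 1, 3 and 5 lay below the early kidneys, and replicates 2 and 4 among them. Dab2, the adaptor of these receptors, differed by -0.41 ± 0.11, Lrp2 (megalin) by -0.35 ± 0.15 and the endosomal chloride exchanger Clcn5 by -0.33 ± 0.12. With the covariate Cubn had -0.10, Dab2 -0.23, Lrp2 -0.092 and Clcn5 -0.079. In the loop of Henle and distal tubule, 10 of 13 genes had a lower mean, with a median of -0.0353. Egf, made in the thick limb and the distal convoluted tubule, had 12.35, 13.30, 12.59, 12.90 and 12.50, against 13.03 to 13.51 (median 13.37), a difference of -0.56 ± 0.14. Cldn10, a claudin of the thick limb, differed by -0.45 ± 0.13. With the covariate Egf had -0.32 and Cldn10 -0.16. The collecting duct list had 10 of 16 higher means and 0 members with an unadjusted p under 0.05 in either direction (median 0.0857), and Aqp2, its water channel, differed by 0.25 ± 0.12 (0.061 with the covariate).

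In the opposite direction, genes of the type I interferon response had the highest median of the immune lists. Of 20 measured, 19 had a higher and 1 a lower mean in TACI-Ig kidneys, 8 with an unadjusted p under 0.05 beside 6.29% of all genes, and the median difference was 0.314. No member was called with all kidneys. Without TACI-Ig replicate 2, 12 rose, beside 2.43% of all genes, and the median was 0.46. Without replicate 3 the median was 0.195. The list score was 0.439, -0.551, 0.635, 0.0555 and 0.501 in TACI-Ig kidneys and -0.293 to 0.108 in early kidneys, so replicates 1, 3 and 5 lay above all early kidneys, replicate 4 among them and replicate 2 below them all. With the β-actin covariate the median was 0.0966 and 0 members had an unadjusted p under 0.05, against 2.12% of all genes on the higher side.

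Oasl2, an interferon-induced protein related to oligoadenylate synthases, had 7.52, 6.21, 8.23, 7.28 and 7.58 in TACI-Ig kidneys, against 6.43 to 7.30 (median 6.66), a difference of 0.61 ± 0.25 (adjusted p = 0.283). Ifit1 had 8.43, 5.44, 8.34, 7.01 and 8.46, against 6.17 to 7.48 (median 6.30), a difference of 0.99 ± 0.43. Bst2 (tetherin), which holds budding viruses at the cell surface, had 9.02, 7.82, 9.36, 8.30 and 8.73, against 8.02 to 8.39 (median 8.16), a difference of 0.47 ± 0.19. In all 3 genes replicates 1, 3 and 5 exceeded every early kidney and replicate 2 was below every early kidney. Ifi35 and Oasl1 differed by 0.44 ± 0.15 and 0.44 ± 0.18, while Stat2, a subunit of the transcription factor that answers interferon, differed by -0.09. With the covariate Ifit1 had 0.22 and Oasl2, Bst2, Ifi35 and Oasl1 had 0.31, 0.20, 0.16 and 0.23, while Stat2 turned to 0.11. Without replicate 3, Oasl2, Bst2 and Oasl1 had 0.39, 0.30 and 0.29, and without replicate 2 Oasl1 had 0.66.

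Interferon-induced genes are known to be driven through an interferon-stimulated response element. Searched as GAAANNGAAA or its reverse complement TTTCNNTTTC in the 250 bases before the start, it was present in 5 of the 13 list genes, of 20 measured, that had a RefSeq promoter, against 2.98% of all 32851 promoters and 3.11% of the 12585 tested genes with a promoter. Ifit1, Bst2 and Stat2 are printed because they hold the element and had the highest, the next highest and the single negative difference among the 5, the others being Oas3 and Rsad2. The windows are from RefSeq on GRCm38.p6, at chr19:34640639-34640888 (plus strand), chr8:71537473-71537722 (minus strand) and chr10:128270248-128270497 (plus strand), written 5′ to 3′ on the gene's strand with the matches in capitals.
Ifit1: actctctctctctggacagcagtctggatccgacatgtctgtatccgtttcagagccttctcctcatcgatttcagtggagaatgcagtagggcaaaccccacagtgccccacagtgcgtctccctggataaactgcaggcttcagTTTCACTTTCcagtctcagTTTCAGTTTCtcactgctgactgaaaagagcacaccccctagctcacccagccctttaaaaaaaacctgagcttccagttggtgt
Bst2: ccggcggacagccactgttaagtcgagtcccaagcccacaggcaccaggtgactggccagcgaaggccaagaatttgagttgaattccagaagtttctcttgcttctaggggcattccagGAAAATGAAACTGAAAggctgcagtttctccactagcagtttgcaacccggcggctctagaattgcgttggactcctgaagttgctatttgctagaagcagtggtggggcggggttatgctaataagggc
Stat2: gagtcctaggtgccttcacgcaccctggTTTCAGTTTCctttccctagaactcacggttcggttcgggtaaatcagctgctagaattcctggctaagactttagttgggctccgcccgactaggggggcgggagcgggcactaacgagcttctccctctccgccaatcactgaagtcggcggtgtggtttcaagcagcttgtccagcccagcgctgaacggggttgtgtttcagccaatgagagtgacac
Ifit1 holds 2 separate matches, Bst2 holds 2 that overlap and Stat2 holds 1. The match is a description of the letters and says nothing of binding, and genes with and without it had differences of either size, as Oasl2 and Irf7 (0.61 and 0.63, or 0.31 and 0.054 with the covariate) had no match in this window.

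MHC class II presentation had 10 of 10 genes with a higher mean in TACI-Ig kidneys, a median difference of 0.27 and 0 members with an unadjusted p under 0.05. Cd74, the invariant chain, had 11.67, 10.03, 11.84, 10.98 and 11.88, against 10.17 to 11.57 (median 11.03), a difference of 0.39 ± 0.31. Replicates 1, 3 and 5 were above the early kidneys and replicate 2 below them. With the covariate the list's median was -0.122 and that of Cd74 was -0.15, so the direction of this list was not kept. The median was 0.12 to 0.17 without TACI-Ig replicate 1, 3 or 5 and 0.475 without replicate 2, and Cd74 had 0.70 without replicate 2, 0.25 without replicate 3 and 0.24 without replicate 5. Class I presentation and the immunoproteasome had 10 of 12 higher means (median 0.102), with H2-K1 at 0.43 ± 0.24 and Psmb8 at 0.41 ± 0.27. With the covariate this median was -0.00554, H2-K1 had 0.072 and Psmb8 0.026, so its direction was not kept either. It was 0.0388 without TACI-Ig replicate 3, 0.0679 without early replicate 7 and 0.173 without TACI-Ig replicate 2, when H2-K1 had 0.67 and Psmb8 0.69, and Psmb8 had 0.21 without replicate 3. Macrophage and dendritic cell genes had 17 of 20 higher means and a median of 0.192, which became -0.266 with the covariate and -0.0607 without TACI-Ig replicate 5. Without TACI-Ig replicate 2 or 4 it was 0.361 or 0.344. Their score was 0.412, -0.474, 0.0614, -0.469 and 1.05 in TACI-Ig kidneys and -0.464 to 0.379 in early kidneys, so that TACI-Ig replicates 2 and 4 were the lowest and replicate 5 the highest of all 13. Lgals3 (galectin-3), the member with the smallest p, had 10.47, 9.83, 10.40, 10.19 and 10.65, against 9.46 to 10.14 (median 9.89), a difference of 0.47 ± 0.14 (0.30 with the covariate).

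Of 5 genes of BAFF, APRIL and their receptors, 3 were measured, and APRIL, the other target of TACI-Ig, was not among them. BAFF itself (Tnfsf13b) had 6.41, 6.14, 6.50, 5.85 and 6.99 in TACI-Ig kidneys, against 5.95 to 6.57 (median 6.23), a difference of 0.13 ± 0.15 (95% interval -0.19 to 0.45), and the groups overlapped. It was -0.063 with the covariate, -0.022 without TACI-Ig replicate 5 and 0.26 without replicate 4. The receptors Tnfrsf17 (BCMA) and Tnfrsf13c (BAFF receptor) had intervals of -0.18 to 0.27 and -0.22 to 0.32. B cell genes had 8 of 10 higher means with a median of 0.051 and 0 members with an unadjusted p under 0.05. This median was -0.127 with the covariate, -0.0502 without TACI-Ig replicate 3 and 0.164 without replicate 4. Ms4a1 (CD20) had 6.26, 4.72, 6.73, 4.84 and 6.59, against 5.35 to 6.19 (median 5.59). Replicates 2 and 4 of the TACI-Ig group lay below every early kidney and replicates 1, 3 and 5 above, and the mean difference was 0.18 ± 0.31, with no settled sign (-0.30 with the covariate, and -0.048 to 0.45 with single kidneys left out). Plasma cell and immunoglobulin genes had 8 of 12 higher means and a median of 0.0579. That median was -0.0615 with the covariate, -0.0948 without TACI-Ig replicate 3 and 0.162 without replicate 4. Iglc1, an immunoglobulin light chain, had a difference of 0.26, while Jchain and Ighm had lower means. Jchain, which joins IgM and IgA into polymers, had 11.16, 10.84, 11.71, 9.78 and 11.70 in TACI-Ig kidneys, against 10.82 to 12.91 (median 11.98), a difference of -0.94 ± 0.36 (adjusted p = 0.246). Ighm, the IgM heavy chain, had 9.55, 8.53, 10.30, 6.34 and 9.60, against 8.23 to 11.27 (median 9.80), a difference of -0.96 ± 0.59. Both overlapped, with TACI-Ig replicate 4 lowest of all 13 kidneys, and both were lower still with the covariate (-1.32 and -1.57). Without that kidney Ighm had -0.33. Sdc1 (CD138), which marks plasma cells and is also made by epithelium, had an interval of 0.01 to 0.39.

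T cell genes had 16 of 18 higher means with a median of 0.133 (-0.109 with the covariate), and 0 with an unadjusted p under 0.05. The median was 0.0691 without TACI-Ig replicate 1, 0.216 without replicate 2, 0.21 without replicate 4 and 0.0548 without replicate 5. Cd3d had 6.77, 5.50, 6.87, 5.76 and 7.00 in TACI-Ig kidneys, against 5.59 to 6.45 (median 5.98), a difference of 0.36 ± 0.23. As in Ms4a1, replicates 1, 3 and 5 were above and replicate 2 below the early kidneys. With the covariate Cd3d had -0.055, and it had 0.58 without replicate 2, 0.24 without replicate 3 and 0.21 without replicate 5. All 13 costimulation genes had a higher mean, by a median of 0.107 (-0.024 with the covariate, 0.178 without TACI-Ig replicate 2 and 0.0669 without replicate 5), with Cd274 (PD-L1) at 0.25 ± 0.12, or 0.11 with the covariate. Natural killer and cytotoxic genes had 8 of 10 higher means (median 0.0663, and -0.072 with the covariate). Their leading member Ccl5 had 8.51, 6.08, 8.17, 7.42 and 8.54, against 6.65 to 7.44 (median 7.09), a difference of 0.72 ± 0.33, or 0.03 with the covariate and 1.13 without TACI-Ig replicate 2. Chemokines and their receptors had 18 of 24 higher means, 4 with an unadjusted p under 0.05, and a median of 0.189 (-0.0645 with the covariate). It was 0.104, 0.124 and 0.0529 without TACI-Ig replicate 1, 3 and 5 in turn. Cxcl2, a neutrophil chemokine, had 5.04, 4.92, 5.03, 4.88 and 5.28, against 4.59 to 4.90 (median 4.74), a difference of 0.28 ± 0.07. Replicate 4 lay just under early replicate 1 and the other TACI-Ig kidneys above all early kidneys. Ccr1, a receptor of monocytes and neutrophils, differed by 0.32 ± 0.08 and Cxcl1, another neutrophil chemokine, by 0.60 ± 0.17, or 0.28 with the covariate. The lists of lymph node and high endothelial genes and of neutrophils had medians of 0.0372 and 0.147, the neutrophil one being 0.00222 with the covariate and 0.0734 to 0.0905 without TACI-Ig replicate 1, 3 or 5.

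Lcn2, Il1f6 and Havcr1, genes of tubular injury and epithelial inflammation, were compared by two-sided exact permutation over the 1287 splits of the 13 kidneys. Lcn2, the injury marker NGAL, had 7.47, 6.32, 8.33, 7.49 and 10.41 in TACI-Ig kidneys, against 5.69 to 8.35 (median 6.46) in early kidneys. The difference was 1.32 ± 0.59 (95% interval 0.06 to 2.58), with an exact permutation p of 0.0777, or 0.117 after adjustment over the 3 tests (limma's p adjusted over all genes was 0.313), and the groups overlapped save for TACI-Ig replicate 5. With the covariate it was 0.48, and 0.72 without replicate 5. Il1f6 (IL-36α), an epithelial cytokine of the IL-1 family, had 7.16, 6.52, 6.41, 6.88 and 7.25, against 6.03 to 6.81 (median 6.32). Replicates 1, 4 and 5 were above all early kidneys. Its difference was 0.50 ± 0.15, with an exact permutation p of 0.0148 and 0.0443 after adjustment over the 3 tests, while limma's p adjusted over all genes was 0.171. The call was lost when any of 9 kidneys was left out, and the difference was 0.27 with the covariate. Havcr1 (KIM-1) had 8.34, 8.69, 8.35, 9.73 and 8.50, against 8.26 to 8.92 (median 8.73), a difference of 0.05 ± 0.20 (95% interval -0.38 to 0.47, exact permutation p = 0.872). TACI-Ig replicate 4 stood far above the other 12 kidneys, and without it the difference was -0.20. With the covariate it was 0.30.

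Of 24 genes of tubular injury, 19 had a higher mean in TACI-Ig kidneys, with a median of 0.263 (0.14 with the covariate). Of the 19, 9 had an unadjusted p under 0.05, beside 6.29% of all genes on the higher side. Ankrd1, a cofactor induced in stressed cells, had 6.15, 5.33, 5.44, 6.43 and 6.46, against 4.88 to 5.90 (median 5.15), a difference of 0.74 ± 0.21. Krt20, a keratin of injured tubules, had 5.90, 5.38, 5.04, 5.95 and 5.68, against 4.91 to 5.46 (median 5.06), a difference of 0.48 ± 0.14. In both, replicates 1, 4 and 5 were above all early kidneys and early replicate 2 was the highest of its group. With the covariate Ankrd1 had 0.44. Among IL-1 and IL-36 family genes, 13 of 15 had a higher mean (3 with an unadjusted p under 0.05, median 0.155, 0.00367 with the covariate and 0.0832 without TACI-Ig replicate 5). The alarmin Il33 had 8.07, 7.47, 7.79, 7.21 and 8.51, against 6.70 to 7.96 (median 7.09), a difference of 0.70 ± 0.22 (0.30 with the covariate), and early replicate 2 lay far above the other early kidneys. In the p53 and DNA damage list, 12 of 18 had a higher mean (median 0.0452), beside 54.2% of all genes. At an unadjusted p under 0.05, 4 were higher and 2 lower, beside 6.29% and 8.52% of all genes. Cdkn1a (p21) had 7.15, 7.11, 7.98, 7.72 and 7.35, against 6.93 to 7.21 (median 7.00), a difference of 0.44 ± 0.12 that was 0.49 with the covariate. Replicates 3, 4 and 5 stood above the early kidneys. Plk3, a stress kinase, differed by 0.47 ± 0.15 and Sesn2, a sestrin, by -0.35 ± 0.12 (-0.13 with the covariate). Proliferation genes had 19 of 20 higher means with a median of 0.225, which became 0.000785 with the covariate, 0.0497 without TACI-Ig replicate 5 and 0.345 without replicate 2. Mcm6, of the replicative helicase, differed by 0.55 ± 0.22, or 0.34 with the covariate.

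Of 18 collagen genes, 16 had a higher mean in TACI-Ig kidneys. On that side 4 had an unadjusted p under 0.05, beside 6.29% of all genes. The list's median was 0.225, or 0.195 with the covariate and 0.147 without early replicate 2. Col4a1, of the basement membrane, had 10.76, 10.33, 11.38, 11.18 and 11.03, against 10.45 to 10.65 (median 10.58), a difference of 0.37 ± 0.13. Replicate 2 was below every early kidney and the other TACI-Ig kidneys above. Col5a2, a fibrillar collagen, had 8.22, 8.34, 7.86, 8.28 and 7.91, against 7.49 to 8.11 (median 7.70), a difference of 0.37 ± 0.11. Replicate 2 was the highest here, the reverse of its place in the interferon and basement membrane genes. Matrix remodelling had 14 of 20 higher means (median 0.187, and 0.07 with the covariate). Of the 14, 5 had an unadjusted p under 0.05, beside 6.29% of all genes. Ccn2 (CTGF) had 10.42, 11.21, 10.22, 10.75 and 11.23, against 9.41 to 10.71 (median 9.95), a difference of 0.73 ± 0.22 with overlap. Bgn (biglycan) and Tnc (tenascin C) differed by 0.30 ± 0.11 and 0.35 ± 0.13. Bgn had 0.19 with the covariate, and Tnc 0.23 without TACI-Ig replicate 1.

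Glomerular and vascular lists lay close to 0. Podocyte genes had 5 higher and 5 lower means (median -0.0331), with 2 lower at an unadjusted p under 0.05. Nphs1 (nephrin), of the slit diaphragm, had 6.65, 7.15, 6.89, 7.25 and 6.94 in TACI-Ig kidneys, against 7.05 to 7.48 (median 7.19), a difference of -0.26 ± 0.10, and -0.15 with the covariate. Endothelial genes had 9 of 12 higher means (median 0.0736) and ran both ways. Tek (TIE2), the angiopoietin receptor, had 9.44, 8.96, 9.36, 9.16 and 9.21, against 8.75 to 9.12 (median 8.96), a difference of 0.26 ± 0.08, Plvap, of fenestral diaphragms, differed by 0.30 ± 0.11, and Emcn (endomucin) by -0.31 ± 0.11. With the covariate Tek, Plvap and Emcn had 0.14, 0.19 and -0.14. Vegfa, which podocytes and tubules supply to this endothelium, had 8.23, 9.22, 8.73, 8.82 and 8.44, against 8.87 to 9.20 (median 9.18), a difference of -0.43 ± 0.13 with replicate 2 alone above the early kidneys, and it was -0.14 with the covariate. Mesangial and smooth muscle genes had a median of 0.0418. F2r, the thrombin receptor PAR1, had 10.85, 10.03, 10.54, 10.61 and 11.35, against 9.49 to 10.57 (median 9.81), a difference of 0.77 ± 0.19 (adjusted p = 0.139), or 0.39 with the covariate.

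**Figure D5:**
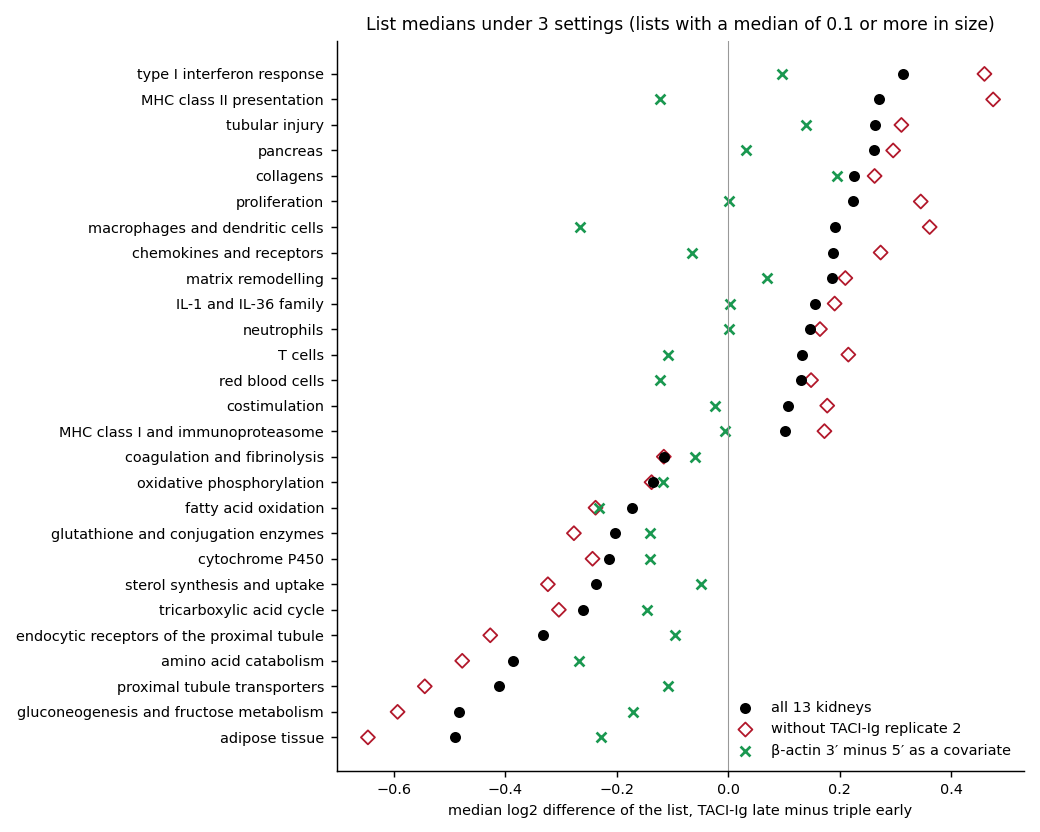
Median log2 difference, TACI-Ig minus early kidneys (x axis), of the 27 lists, adrenal lists aside, whose median was at least 0.1 in size (y axis), with all 13 kidneys, without TACI-Ig replicate 2, and with the β-actin 3′ minus 5′ difference as a covariate. Leaving out replicate 2 moved 27 of the 27 farther from 0, and the covariate moved 25 nearer to 0 and turned 7, macrophages and MHC class II among them. Replicate 2 was the TACI-Ig kidney nearest the early mean, so its removal tends to widen the differences and is no separate evidence for them.

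Lists of broad stress and rhythm gave small medians, with -0.0597 for NRF2 targets, 0.00863 for the unfolded protein response, 0.0862 for heat shock, 0.0476 for immediate early genes, -0.0743 for clock genes, -0.00548 for hypoxia, 0.0798 for complement, -0.115 for coagulation and -0.0542 for renin-angiotensin and kallikrein genes. Without TACI-Ig replicate 1 or 3 the coagulation median was -0.0466 or -0.0562, and it was -0.0591 with the covariate. Fos, an immediate early transcription factor, had 5.78, 6.94, 6.15, 8.58 and 6.80 in TACI-Ig kidneys, against 6.33 to 9.94 (median 7.96), a difference of -1.38 ± 0.55, and Per1, a clock gene that glucocorticoids also induce, had 8.34, 8.60, 8.35, 8.79 and 8.91, against 7.44 to 9.04 (median 7.87), a difference of 0.61 ± 0.21. Both overlapped. Early replicate 2 was highest of all 13 kidneys in both. Cfb, complement factor B, had 9.59, 9.97, 9.78, 9.75 and 9.64, against 9.89 to 10.04 (median 9.96), a difference of -0.22 ± 0.06, with 4 TACI-Ig kidneys below all early kidneys, and -0.12 with the covariate.

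Tissue beside the kidney differed between the groups as well. All 9 measured genes of the adrenal cortex had a lower mean in TACI-Ig kidneys, with a median difference of -1.88, and all 6 of the adrenal medulla, with a median of -0.752. The cortex score was -0.778 to -0.953 in all 5 TACI-Ig kidneys and 1.19, 1.82, -1.14, 1.7, 1.74, -0.518, -0.507 and 0.101 in early replicates 1 to 8. Hsd3b1, a steroid dehydrogenase of the adrenal, had 6.86, 6.63, 6.15, 6.28 and 6.36 in TACI-Ig kidneys, against 6.29 to 10.59 (median 8.95), a difference of -2.29 ± 0.71, and Chgb (chromogranin B), of the medulla, had 4.80, 4.57, 4.48, 4.81 and 4.69, against 4.24 to 9.13 (median 7.31), a difference of -2.26 ± 0.77. Early replicates 1, 2, 4 and 5 were high in both and early replicate 3 was low. Fdx1, listed with the adrenal cortex but also present in kidney mitochondria, differed by -0.46 ± 0.10. Adipose genes had 8 of 9 lower means (median -0.491), and Adipoq (adiponectin) had 6.63, 10.38, 7.96, 9.56 and 8.84, against 8.88 to 11.03 (median 9.93), a difference of -1.32 ± 0.49. With the covariate the median was -0.229 and Adipoq had -0.48, and without TACI-Ig replicate 1 Adipoq had -0.81. Leaving the 15 adrenal genes out gave 0 called genes of 15765. Pancreas genes had 7 of 8 higher means, with a median of 0.261 that was 0.0324 with the covariate and 0.0695 without TACI-Ig replicate 1. Red blood cell genes had a median of 0.13, which turned to -0.123 with the covariate and to -0.0521 without TACI-Ig replicate 5, and skeletal muscle genes had 0.0662. The part of these tissues in the differences of the kidney lists was not tested.

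Late-remission kidneys after the triple therapy share their controls with this comparison and were fitted separately. Against early kidneys they had 0 genes higher and 11 lower at an adjusted p of 0.05 (0.0697%), and beside those values the TACI-Ig differences were -0.50 against -0.40 for Gstk1, -0.91 against -0.59 for Cndp1, -0.65 against -0.38 for Echs1, -0.38 against -0.42 for Wfdc15b and -0.32 against -0.29 for Fah. The mean of the late triple-therapy kidneys lay within 0.0255 of the pooled mean of the TACI-Ig and 30-week kidneys for every gene, with an SD of 0.0045 over genes, so their values are not a separate observation of these genes. TACI-Ig kidneys had 12 genes lower than those kidneys (0.076%), among them Hsd3b1, Cyp21a1 and Chgb. Because that late triple-therapy mean follows the TACI-Ig and 30-week values, these 12 calls are not a separate result either. The direct fit of TACI-Ig against 30-week kidneys called 0 genes, with a smallest limma adjusted p of 0.203.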

How the data were processed

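RNA of whole kidneys was hybridised to Affymetrix arrays, 1 array per kidney. The deposited values are log2 expression values per Entrez gene, which the authors made with RMA (version not stated) and, per the study's methods, normalized and batch-corrected together, without naming the batches. A batch that follows the groups could not be checked. Tests covered 15780 of the 16539 probe sets, 1 per gene (15752 Entrez IDs were in RefSeq), after 64 array controls and 695 unnamed probe sets were set aside. There is no depth to give for arrays, so precision depends on how many there are.

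Groups came from the sample labels. The 5 TACI-Ig and 8 early kidneys were fitted alone in R 4.3.3 using limma 3.58.1 (lmFit, then eBayes). P-values were adjusted over the 15780 genes by Benjamini-Hochberg, and calls were made under 0.05. The study's filter (q of SAM at most 0.001, fold at least 1.4 or at most 0.7) was applied as a second rule. Outside the SAM-type test, limma's adjusted p took the place of its q. The scripts were tested on simulated data.

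The 49 gene lists (829 symbols, 725 measured) and the members were chosen with earlier results of these data known. Lists are described by counts and medians, without a test. Named genes are the 10 with the smallest p in each direction, since none passed the threshold, up to 4 members of each list by smallest p, and Lcn2, Il1f6 and Havcr1. Ifit1, Stat2, Irf7, Iigp1, the genes that passed the filter without TACI-Ig replicate 2, those called in late triple-therapy kidneys and those in the closing observations were chosen after their values were seen. RefSeq promoters on GRCm38.p6 were searched for motifs.

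Alternatives were a fit over 5 and over 4 groups, quantile normalization again, median centring, dim genes left out, an intensity trend, array weights, the replicate number as a block, a SAM-type test (100 permutations), early kidneys with the letters BG or GG alone, adrenal genes left out and each kidney left out. Chosen after seeing the data were variance weights per group, the β-actin 3′ minus 5′ difference as a covariate, and early replicates 2 and 8 left out together.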

Additional observations from a re-analysis of the deposited data

Results flagged for a closer look

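Within each group, the highest and the lowest kidney were compared with the rest by Dixon's criterion. This was done for 129 named genes and 49 list scores, which came to 356 tests. The genes included Ifit1 and Stat2, which were chosen after their values were seen. Chance alone picks out about 1 in 20 groups, and 23 were picked out here, 6 in TACI-Ig and 17 in early kidneys. In the early kidneys, 11 were of early replicate 2 and 6 of early replicate 8. The criterion finds single kidneys that lie far from the others of their group.

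In TACI-Ig kidneys, Osmr reached 7.61 in replicate 3, Havcr1 reached 9.73 in replicate 4 and Slc13a3 was at 11.5 in replicate 5, the lowest of its group. The pancreas score was 0.781 and the skeletal muscle score 0.285 in replicate 1, and the immediate early score was 0.66 in replicate 4.

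In early replicate 2, Osmr was at 7.24, Pcx at 11.5 and Il33 at 7.96, each above the other early kidneys, while Fads2 at 9.75, Vegfa at 8.87 and Enpep (glutamyl aminopeptidase, of the renin-angiotensin system) at 11.3 lay below them. That kidney's scores were 0.871 for fatty acid oxidation, 0.172 for skeletal muscle and 0.151 for hypoxia, above its group, and -0.421 for the loop of Henle and distal tubule and -0.514 for sterol synthesis, below it.

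In early replicate 8, Ddit4 was at 7.73 and Ucp1, the uncoupling protein of brown fat, at 7.38, both the lowest of the group, and the adipose score was -0.45. Its scores of 0.942 for red blood cells, 0.281 for pancreas and 0.315 for neutrophils were the highest of the group. Without early replicates 2 and 8 together, 0 genes were called.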

How the results depend on the processing

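With all 13 kidneys, 0 genes were called under quantile normalization, median centring, a floor of 6.07 on the log2 mean (10520 genes) and the intensity trend. The same held with adrenal genes left out, variance weights per group and the β-actin covariate (smallest adjusted p 0.497). Early kidneys with the letters BG (n = 4) or GG (n = 3) alone, set against the TACI-Ig kidneys, also gave 0, from fewer kidneys and so with less power. Calls higher and lower were 46 and 268 in the fit over 5 groups, 13 and 105 over 4 groups, 19 and 107 with array weights and 79 and 206 by the SAM-type test at a q of 0.05, and the study's filter passed 0 in each. Leaving out each kidney in turn gave 0 to 383 higher, 0 to 693 lower and 0 to 12 past the filter, the upper values without TACI-Ig replicate 2. Sharing a replicate number did not pair the kidneys (correlations of deviations 0.116, -0.132, 0.0414, -0.0874 and -0.113), and the replicate block called 0 higher and 1 lower, Cyp2e1.

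Il1f6 kept its direction but not its call with the block (0.47), with BG kidneys (0.56) or GG kidneys (0.50) alone, and in 9 of the fits that left out a kidney, where its difference ran between 0.40 and 0.53. Over all 13 such fits it ran up to 0.61. The difference of Lcn2 ran between 0.72 and 1.74, and it passed the threshold without early replicate 2 (1.56) or TACI-Ig replicate 2 (1.74). Havcr1 had a difference of -0.083 with BG kidneys alone, and of -0.20 to 0.14 with kidneys left out, below 0 without early replicate 2 (-0.01) or TACI-Ig replicate 4. With the β-actin covariate, the sign turned for Cd74 (-0.15), H2-DMa (-0.0052), Cd3d (-0.055), Tnfsf13b (-0.063), Ms4a1 (-0.30) and Stat2 (0.11). With single kidneys left out, Ms4a1 ran between -0.048 (without TACI-Ig replicate 3) and 0.45, and was also below 0 without replicate 5 (-0.015). Tnfsf13b ran between -0.022 (without TACI-Ig replicate 5) and 0.26, and Stat2 between -0.18 and 0.021 (without TACI-Ig replicate 1). The cause of these changes was not tested. No named gene was called in the main limma fit, so there was no call to keep. Of 3514 values for 126 named genes, 3261 kept direction and stayed uncalled, 243 passed the threshold under an alternative and 10 turned. Of 1370 list medians, 17 moved by more than the spread between kidneys.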

Other observations

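Interferon-inducible GTPases lay outside the lists. Without TACI-Ig replicate 2, Iigp1, Gbp3, Igtp, Gbp2 and Gbp7 were among the 15 called genes with the largest differences on the higher side, and they were chosen after their values were seen. These GTPases attack the vacuoles of intracellular pathogens and are induced mainly by interferon γ. Iigp1 had 9.04, 7.14, 9.85, 8.71 and 9.68 in TACI-Ig kidneys, against 7.41 to 9.16 in early kidneys, a difference of 0.90 ± 0.40 with all 13 kidneys (adjusted p = 0.307) and of 1.34 without replicate 2 (adjusted p = 0.0202). Replicates 3 and 5 lay above every early kidney and replicate 2 below all of them. Gbp3, a guanylate-binding protein, had 9.36, 8.26, 9.23, 9.56 and 9.19, against 7.48 to 8.73, a difference of 0.78 ± 0.23, and Gbp7, of the same family, had 8.27, 7.12, 8.63, 7.79 and 8.40, against 7.02 to 7.55, a difference of 0.71 ± 0.20. In these 2 genes every TACI-Ig kidney but replicate 2 exceeded all early kidneys. With the β-actin covariate Iigp1, Gbp3 and Gbp7 had 0.39, 0.63 and 0.45.

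On the lower side, Nox4, Hipk3 and Hpd were likewise chosen after their values were seen. Nox4, an NADPH oxidase abundant in kidney tubules, had 10.67, 11.96, 10.44, 10.59 and 10.97 in TACI-Ig kidneys, against 10.97 to 12.02 in early kidneys, a difference of -0.80 ± 0.25 with all kidneys and -1.06 without replicate 2 (limma adjusted p = 0.174 and 0.00946). Hipk3, a nuclear kinase, had 5.68, 7.22, 6.05, 6.14 and 5.76, against 6.59 to 7.28, a difference of -0.81 ± 0.20. Replicate 2 lay among the early kidneys in both. Hpd, of tyrosine breakdown, had 10.77, 11.57, 11.61, 10.11 and 10.22, against 11.34 to 12.31, a difference of -0.92 ± 0.25, and here both replicates 2 and 3 lay within the early range. With the covariate Nox4, Hipk3 and Hpd had -0.50, -0.37 and -0.71.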
